A study of Mus musculus with 12 samples.

Results

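H19, Igf2 and 7 genes tied to them by position or by signalling were followed across 12 RNA-seq libraries of mouse haploid embryonic stem cells (ESCs). The cells are androgenetic, so that their only chromosome set comes from the father. The 9 genes were taken by symbol from both count tables, which list 24421 symbols each, and all 9 were present. They are the long non-coding RNA H19, the growth factor gene Igf2 and its antisense transcript Igf2os, the IGF2 receptor gene Igf2r and the non-coding transcript Airn that runs across it, the receptor genes Igf1r and Insr, and the receptor substrate genes Irs1 and Irs2. The study set Etl4 knockout (KO) cells against wild-type (WT) cells in the cell lines OdG and EG1, both with a C57BL/6 background, and its title concerns a screen in which loss of Etl4 stabilised haploidy. The OdG table held 2 libraries of Etl4 KO line 1, 2 libraries of Etl4 KO line 2 and 2 OdG WT libraries. The EG1 table held 3 libraries of 1 Etl4 KO line and 3 EG1 WT libraries. Each KO group is labelled as 1 line, so a difference between a KO line and its WT cannot be told apart from a difference between any 2 lines. The labels do not say whether the WT libraries come from the very cells in which the KO lines were made, and this bears on every KO against WT value. The labels do not state whether replicates are separate cultures, and p-values therefore cover no more than the spread among the libraries given, which could be technical.

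H19 and Igf2 lie next to each other at the distal end of mouse chromosome 7 and share enhancers. A control region between them is methylated on the paternal copy, from which Igf2 is normally transcribed, and bound by CTCF on the maternal copy, from which H19 is normally transcribed. IGF2 signals through the tyrosine kinase receptors IGF1R and INSR, which pass the signal to AKT through the substrates IRS1 and IRS2, whereas IGF2R binds IGF2 and carries it to lysosomes for degradation. Igf2r is itself imprinted in mouse tissues after implantation, when Airn, transcribed from the paternal copy, silences Igf2r on the same chromosome.

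In mm10, GENCODE M21 places H19 at chromosome 7, 142575529 to 142578143, and Igf2 at 142650766 to 142666816, both on the minus strand. Their start sites are 88.7 kb apart. Each gene carries a microRNA, shown here because the hairpins lie within these transcripts. miR-675 lies in an exon of H19 and miR-483 in an intron of Igf2. The mature RefSeq sequences (GRCm38.p6, minus strand) are given 5′ to 3′ with the seed, bases 2 to 8, in capitals, and the 4 seeds all differ.
miR-675-5p: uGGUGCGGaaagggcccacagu
miR-675-3p: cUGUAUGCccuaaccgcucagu
miR-483-5p: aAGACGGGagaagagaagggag
miR-483-3p: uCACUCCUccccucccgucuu
The hairpin genes gave no readout of their own, with 0 counts of Mir675 in all 12 libraries and 0 or 1 of Mir483.

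RefSeq promoter windows of 300 bases, from 250 before to 50 after an annotated start, were on hand for 6 of the 9 genes. Those of Igf2r and Airn are shown because the Igf2r promoter is the one that Airn transcription crosses, and 1 of the 4 Igf2 windows because Igf2 had the widest range of levels. Capitals mark each CG dinucleotide, the site of DNA methylation in mammals, which reads the same on both strands. The Igf2r window (chr17:12769657-12769956, minus strand) holds 34, and 7.73% of all 32851 mouse windows hold at least as many. The Airn window (chr17:12741061-12741360, plus strand) holds 3, against 76.7% of windows with at least as many. The Igf2 window nearest to the end of the gene (chr7:142657447-142657746, minus strand) holds 7, against 52.1%, and the other 3 hold 24, 14 and 2. No methylation was measured in this study, so the windows are given as sequence context alone.
Igf2r: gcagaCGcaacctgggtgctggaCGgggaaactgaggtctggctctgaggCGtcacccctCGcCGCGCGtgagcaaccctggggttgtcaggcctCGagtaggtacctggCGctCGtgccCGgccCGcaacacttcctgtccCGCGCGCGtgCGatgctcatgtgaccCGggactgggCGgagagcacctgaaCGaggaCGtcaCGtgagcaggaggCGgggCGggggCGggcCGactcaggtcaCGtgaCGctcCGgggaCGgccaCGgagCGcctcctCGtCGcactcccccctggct
Airn: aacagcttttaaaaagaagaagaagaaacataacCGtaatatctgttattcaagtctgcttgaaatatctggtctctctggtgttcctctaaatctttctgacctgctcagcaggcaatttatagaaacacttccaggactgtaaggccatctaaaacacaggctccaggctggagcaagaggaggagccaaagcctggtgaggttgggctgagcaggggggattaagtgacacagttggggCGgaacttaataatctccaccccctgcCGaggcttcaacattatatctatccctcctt
Igf2: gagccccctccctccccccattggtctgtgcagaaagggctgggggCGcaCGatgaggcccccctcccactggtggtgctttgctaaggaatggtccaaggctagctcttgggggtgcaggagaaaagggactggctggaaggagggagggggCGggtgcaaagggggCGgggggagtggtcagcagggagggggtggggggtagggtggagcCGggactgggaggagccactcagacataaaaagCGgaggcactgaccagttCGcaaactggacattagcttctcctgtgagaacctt

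Library totals ran from 16110028 to 19706599 counts. Etl4 transcripts in the KO libraries averaged 98.2 ± 2.91 CPM (counts per 1000000, scaled over the 12 libraries) in line 1 and 111 ± 3.08 CPM in line 2, against 207 ± 3.42 CPM in OdG WT (SD, n = 2 each). They averaged 133 ± 1.46 CPM in EG1 KO and 265 ± 2.77 CPM in EG1 WT (SD, n = 3 each). The ESC label held in every group, since none of 12 ESC markers was under 1 CPM. The OdG WT libraries stand apart from the other 10 in having 0 to 8 counts of Guf1, Gnpda2 and Tfap2c, genes with 157 to 1965 counts in every other library. Values against OdG WT rest on those 2 libraries. The comparison of line 2 with line 1 is given beside them because it does not set a line against WT. The WT libraries still enter the fit behind it, and so its scaling, SE and p-values.

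H19 was high in KO line 2 alone among the OdG groups. Its libraries held 26.6 and 25.5 CPM in line 2 and 2.53 and 3.28 CPM in line 1, against 4.21 and 2.54 CPM in OdG WT. Both line 2 libraries lay far above all the other OdG libraries, and line 1 overlapped WT. In line 2 H19 rose 7.74-fold over WT (log2 2.95 ± 0.154 SE, adjusted p = 3.11e-11 by edgeR's quasi-likelihood test). Against line 1 the difference was 3.18 ± 0.159 on the log2 scale (adjusted p = 4.85e-11), the rank 46 change by size among 14413 genes tested. Line 1 against WT gave -0.23 ± 0.229 (adjusted p = 0.426), and its sign depended on the WT library: it was 0.19 without WT replicate 1 and -0.54 without WT replicate 2 (adjusted p = 0.0476).

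In EG1, H19 held 7.29, 6.19 and 6.72 CPM in the KO libraries, against 4.31, 3.61 and 4.84 CPM in WT. Every KO library lay above every WT library. The rise was 1.58-fold (log2 0.66 ± 0.145, adjusted p = 0.00287), and it passed the threshold under all 11 alternatives run. H19 was thus higher than WT in EG1 KO and in OdG KO line 2, and it was not called in OdG KO line 1.

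Igf2, the paternally transcribed ligand gene of the pair, was abundant in OdG WT and line 1 and low in line 2. OdG KO line 2 held 17.1 and 16.4 CPM and line 1 held 97.4 and 98.0 CPM, against 116 and 115 CPM in OdG WT. The 3 groups did not overlap, and the gap between line 2 and both others was far wider than that between line 1 and WT. Igf2 fell to 0.146 of its WT level in line 2 (log2 -2.78 ± 0.0552, adjusted p = 1.12e-16) and by 0.24 ± 0.0422 on the log2 scale in line 1 (adjusted p = 0.000145). Line 2 against line 1 gave -2.54 ± 0.0563 (adjusted p = 1.01e-15). In bulk RNA, fewer cells that transcribe a gene and less of its RNA per cell cannot be told apart.

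EG1 cells held almost no Igf2. The KO libraries had 17, 11 and 7 counts (0.976, 0.630 and 0.409 CPM), against 11, 8 and 7 counts (0.624, 0.452 and 0.356 CPM) in WT. The ranges overlapped, and the log2 difference of 0.50 ± 0.432 was not called (adjusted p = 0.556). At 35 counts in KO and 26 in WT, the KO over WT count ratio of 1.42 has a 95% interval of 0.833 to 2.46 for counting error only, so a moderate change was not detectable at this depth.

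Igf2os, transcribed from the opposite strand across the upstream part of Igf2, was lower in line 2 than in the other OdG groups. Its level was 1.02 and 0.554 CPM in line 2 and 5.27 and 5.30 CPM in line 1, against 3.81 and 4.36 CPM in OdG WT. It fell in line 2 against WT (log2 -2.37 ± 0.274, adjusted p = 9.36e-07) and against line 1 (-2.74 ± 0.261, adjusted p = 2.31e-07), and was not called in line 1 against WT (0.38 ± 0.187, adjusted p = 0.1). In EG1 it had 8 counts over the 3 KO libraries and 2 over the 3 WT libraries, too few to be tested. The kit named in the labels is not its directional version, and Igf2os shares 98 exon bases with Igf2, so reads of the pair cannot be told apart there. Igf2os counts made up 5.99% and 3.38% of the Igf2 counts in line 2 and 5.41% and 5.4% in line 1, against 3.27% and 3.81% in OdG WT.

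**Figure D1:**
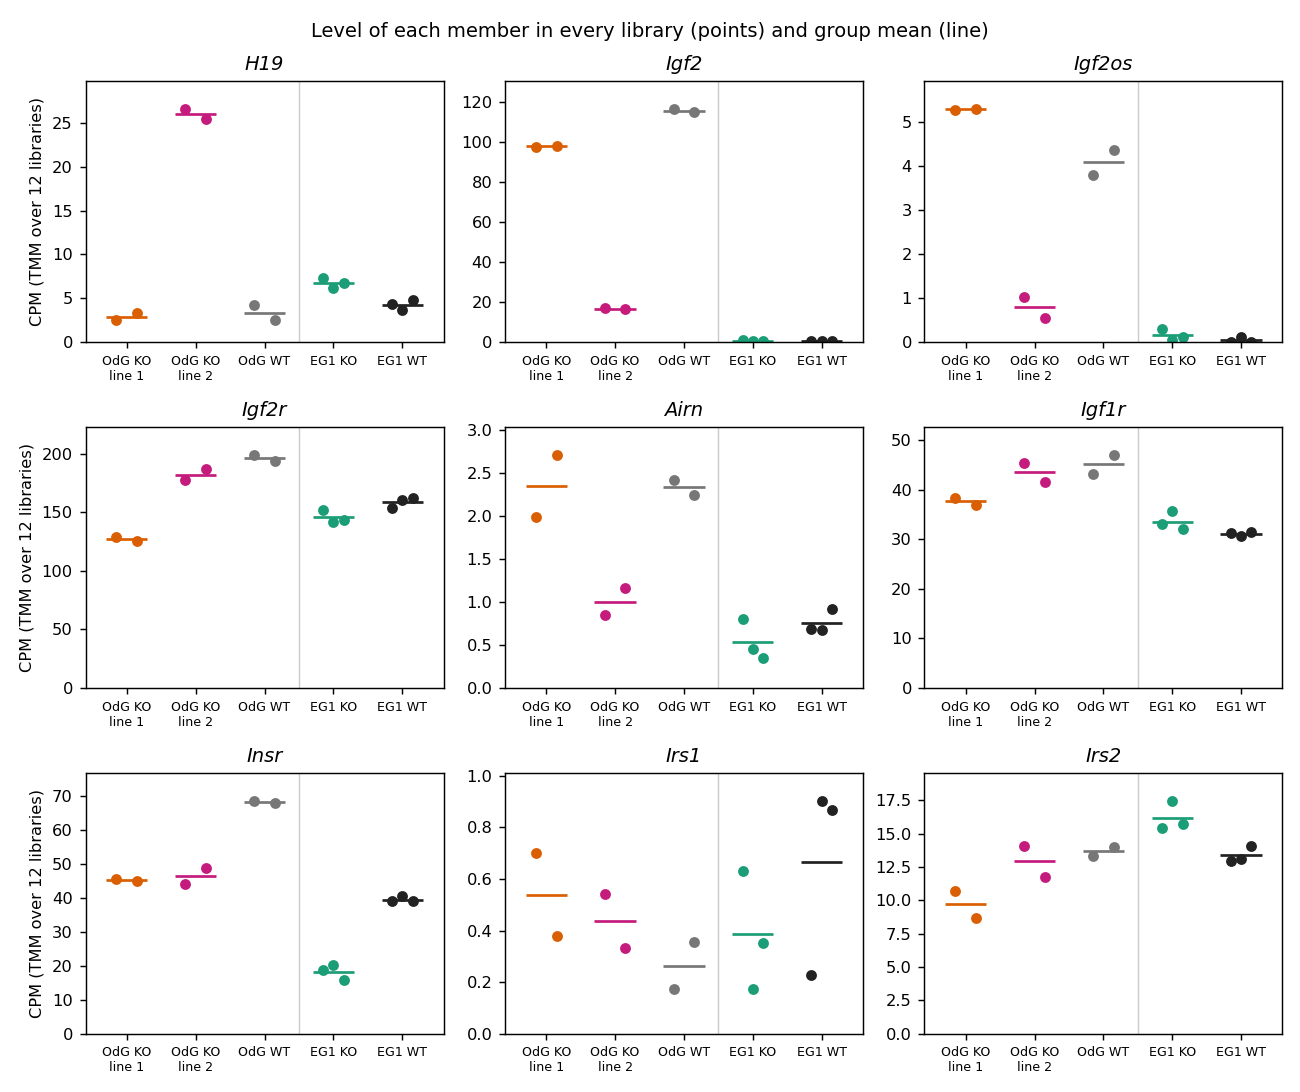
Level of each of the 9 genes in every library, in CPM scaled over the 12 libraries (vertical axes start at 0 and differ between panels), with points for libraries, lines for group means and the OdG groups left of the EG1 groups. H19 is highest in OdG KO line 2 (26.6 and 25.5 CPM), where Igf2 is 17.1 and 16.4 CPM, and Insr is lower in each KO group than in its WT.

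Set against each other, H19 and Igf2 formed a different balance in line 2 than in the other OdG groups. There were 1.55 H19 counts per Igf2 count in both line 2 libraries and 0.026 and 0.0334 in line 1, against 0.0362 and 0.0221 in OdG WT. The EG1 ratios were higher still, at 7.47, 9.82 and 16.4 in KO and 6.91, 8 and 13.6 in WT, and these ranges overlapped. The 2 transcripts did not trade places at a constant total: their summed level was 43.7 and 41.91 CPM in line 2 and 99.95 and 101.3 CPM in line 1, against 120.5 and 117.2 CPM in OdG WT. Per kb of exon, H19 averaged 10.59 and Igf2 2.929 CPM per kb in line 2. In line 1 they averaged 1.18 and 17.08 CPM per kb, against 1.371 and 20.18 CPM per kb in OdG WT.

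**Figure D2:**
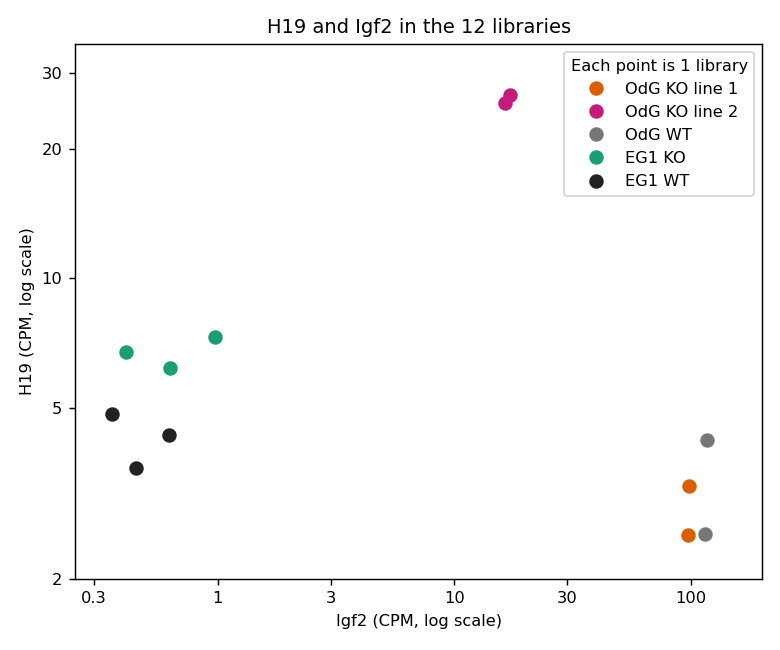
H19 against Igf2 in each of the 12 libraries, in CPM on log axes, 1 point per library. The line 2 libraries lie apart at 25.5 to 26.6 CPM of H19 and 16.4 to 17.1 CPM of Igf2, line 1 lies beside OdG WT, and EG1 KO lies above EG1 WT at under 1 CPM of Igf2.

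Summed levels of markers of other cell types also differed between groups. The summed level of 17 fibroblast feeder markers was 44.0 to 48.0 CPM in line 2 and 58.7 to 59.5 CPM in line 1, against 79.3 to 85.1 CPM in OdG WT. It was 55.1 to 59.7 CPM in EG1 KO and 56.0 to 57.8 CPM in EG1 WT. Prrx1 was at 0 in line 2, and Col3a1, Lum, Postn and Prrx1 were at 0 in line 1. In EG1, Lum, Postn and Dcn were at 0 in both groups, Col3a1 in KO and Prrx1 in WT. Markers of primitive endoderm, a tissue that transcribes Igf2 in the embryo, summed to 923 to 940 CPM in line 2 and 1350 to 1366 CPM in line 1, against 1924 to 1942 CPM in OdG WT. In EG1 that sum was 1435 to 1510 CPM in KO and 1448 to 1472 CPM in WT, and of these 18 markers Ttr was at 0 in both EG1 groups. The sums of 2 other lists were higher in OdG KO. Trophoblast markers (13, with Prl3d1 at 0 in every group) summed to 340 to 351 CPM in line 2 and 389 to 392 CPM in line 1, against 297 to 299.9 CPM in OdG WT, and to 194 to 204 CPM in EG1 KO and 184 to 193 CPM in EG1 WT. Tfap2c, which OdG WT nearly lacks, is in this list. It held 109 to 114 CPM in line 2 and 9.90 to 10.8 CPM in line 1, against 0.288 to 0.472 CPM in OdG WT. It held 85.5 to 87.8 CPM in EG1 KO and 85.0 to 90.3 CPM in EG1 WT. Of 11 tested, 2 were higher and 5 lower in line 2 (median log2 -0.65), and 5 higher and 3 lower in line 1 (median 0.27). Of all genes, 30% were called higher and 29.8% lower in line 2, and 26.8% and 26.1% in line 1. Of 12 fibroblast markers tested, 2 were higher and 6 lower in line 2, and 0 higher and 5 lower in line 1. Of 14 primitive endoderm markers tested, 0 were higher and 8 lower in line 2, and 1 higher and 5 lower in line 1. Neural ectoderm markers (10) summed to 69.7 to 76.2 CPM in line 2 and 84.4 to 85.1 CPM in line 1, against 53.9 to 55.8 CPM in OdG WT, and to 97.7 to 113 CPM in EG1 KO and 90.4 to 94.9 CPM in EG1 WT. Of 8 tested, 3 were higher and 1 lower in line 2 (median log2 0.66). In line 1, 2 were higher and 0 lower (median 0.31), and the count of higher genes is near the share of 26.8%. The sum of primitive streak and mesoderm markers (11) was higher in OdG, at 72.3 to 75.7 CPM in line 2 and 71.9 to 75.6 CPM in line 1, against 77.3 to 84.9 CPM in OdG WT, where Mesp1 was at 0, and at 12.3 to 14.7 CPM in both EG1 KO and EG1 WT. Of these 11, 9 were under 1 CPM in OdG WT. In EG1 WT against OdG WT, 2 of 8 tested were called higher and 3 lower (median log2 -0.19), and T gave -4.09 ± 0.0877. Of all genes, 35% were called higher and 35.4% lower in that comparison. The part of these cell types in the Igf2 and H19 differences was not tested.

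**Figure D3:**
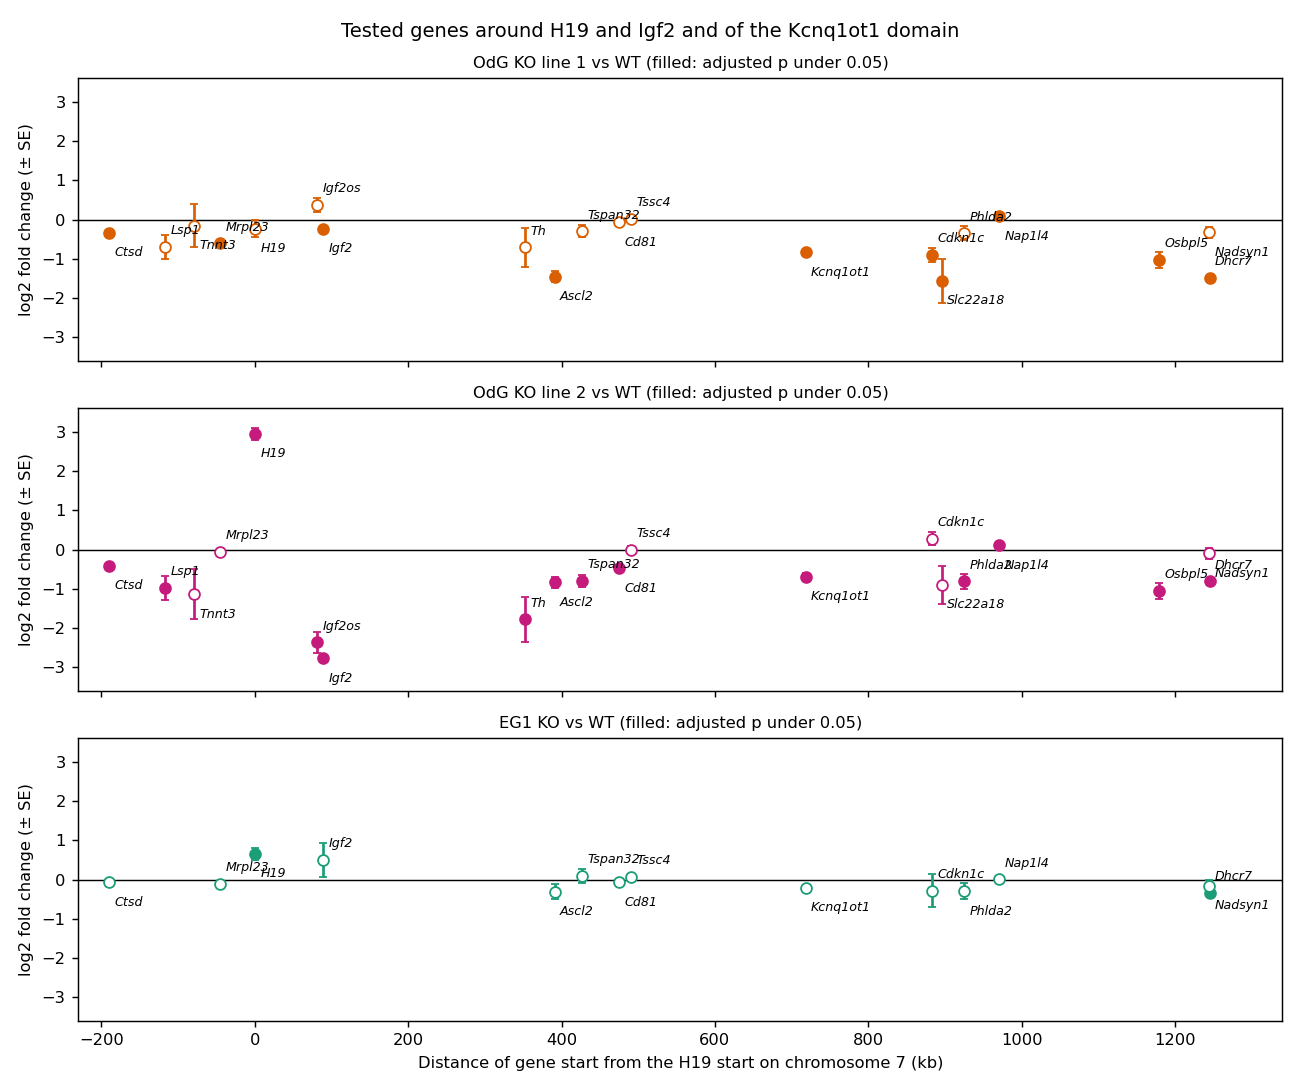
Log2 fold change (± SE) of each tested gene against the distance of its start from the H19 start on chromosome 7, in kb, for line 1 over WT, line 2 over WT and EG1 KO over WT, with filled points for an adjusted p under 0.05. In line 2, H19 at 2.95 stands above all the others while Igf2 and Igf2os, at -2.78 and -2.37, are the lowest points, and in EG1 KO only H19 and Dhcr7 are filled.

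Neighbours of the locus were tested as well. Of 9 between Ctsd and Tssc4, 6 fell and 0 rose in line 2 (median log2 -0.80), and 3 fell and 0 rose in line 1 (median -0.33), where the median of all genes was -0.009 and -0.007. Of all genes, 29.8% were called lower and 30% higher in line 2. In line 1, 26.1% were called lower, near the count there, and 26.8% higher. DESeq2 called 4 of the 9 in line 2 and 3 in line 1. Ascl2, a trophoblast transcription factor gene 391.1 kb from H19, fell by 0.83 ± 0.134 in line 2 and by 1.45 ± 0.145 in line 1 on the log2 scale (adjusted p = 3.88e-05 and 2.2e-07). Th, the tyrosine hydroxylase gene, averaged 0.234 CPM in line 2 and 0.508 CPM in line 1, against 0.815 CPM in OdG WT, and was called in line 2 (-1.78 ± 0.582, adjusted p = 0.0139) but not in line 1 (adjusted p = 0.241). Lsp1, which codes for a leukocyte actin-binding protein, fell by 0.98 ± 0.312 in line 2 (adjusted p = 0.0121) and gave -0.69 ± 0.301 in line 1 (adjusted p = 0.0613). In EG1 KO, where 7.66% of all genes were called, 0 of the 6 tested neighbours were called by edgeR or DESeq2, and 1 had an unadjusted p under 0.05 in edgeR (median -0.07). With so few genes tested, that count is near the share.

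The adjoining Kcnq1ot1 domain is a second imprinted cluster, in which the paternally transcribed RNA Kcnq1ot1 silences genes beside it. Of 8 tested genes, 4 fell and 1 rose in line 2, and 5 fell and 1 rose in line 1. Of all genes, 29.8% were called lower and 30% higher in line 2, and 26.1% and 26.8% in line 1. DESeq2 called 4 of the 8 in each line. Kcnq1ot1 itself, outside the rule for named genes, gave -0.69 ± 0.0793 in line 2 on the log2 scale (adjusted p = 8.76e-07). It gave -0.76 ± 0.0676 for the mean of both lines (adjusted p = 3.27e-08) and -0.21 ± 0.0701 in EG1 KO (adjusted p = 0.0683). Dhcr7, an enzyme of cholesterol synthesis at the far end of the domain, fell by 0.81 ± 0.0434 in line 2, by 1.49 ± 0.0464 in line 1 and by 0.34 ± 0.0538 in EG1 KO on the log2 scale (adjusted p = 4.7e-11, 5.37e-14 and 5.16e-05). It was the only 1 of 6 tested genes called in EG1 KO, where 7.66% of all genes were called. Osbpl5, which codes for a lipid transfer protein, fell by 1.05 ± 0.202 in line 2 and by 1.03 ± 0.201 in line 1 (adjusted p = 0.000229 and 0.00034). Slc22a18, a transporter gene, fell by 1.57 ± 0.549 in line 1 (adjusted p = 0.0235) and gave -0.90 ± 0.495 in line 2 (adjusted p = 0.126).

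Igf2r, the clearance receptor, was lower in line 1 than in any other group. Its libraries held 129 and 125 CPM in line 1 and 177 and 187 CPM in line 2, against 199 and 194 CPM in OdG WT. All 3 groups were separate, with line 2 close under WT. Igf2r fell by 0.62 ± 0.0409 on the log2 scale in line 1 (adjusted p = 1.09e-09), and line 2 exceeded line 1 by 0.53 ± 0.041 (adjusted p = 1.8e-08). The line 2 difference from WT, -0.10 ± 0.0397 (adjusted p = 0.0419), was lost in 7 of 10 alternatives. In EG1 the KO libraries held 152, 141 and 143 CPM, against 154, 161 and 162 CPM in WT, with no overlap. That difference of -0.13 ± 0.0392 (adjusted p = 0.0449) was lost with DESeq2 (adjusted p = 0.0899) and when any library other than EG1 KO replicate 1 was left out (adjusted p 0.0543 to 0.191).

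Airn starts inside Igf2r and shares no exon base with it, and its level was low in every group. With a kit that is not directional, reads of unspliced Igf2r RNA at Airn exons within Igf2r cannot be told apart from Airn reads. Igf2r had 46.1 to 409 counts per Airn count over the libraries. Airn held 0.844 and 1.16 CPM in line 2 and 1.99 and 2.71 CPM in line 1, against 2.42 and 2.24 CPM in OdG WT. Line 2 was below both other OdG groups, and line 1 overlapped WT. Airn fell in line 2 against WT by 1.19 ± 0.304 on the log2 scale (adjusted p = 0.00265), and line 1 against WT gave 0.00 (adjusted p = 0.996). Line 2 against line 1 gave -1.20 ± 0.304 (adjusted p = 0.00486), which no longer passed without line 1 replicate 2 (-0.97, adjusted p = 0.0685) or without line 2 replicate 1 (-0.99, adjusted p = 0.0606). In EG1 it held 0.804, 0.458 and 0.350 CPM in KO and 0.681, 0.678 and 0.916 CPM in WT, which overlapped (-0.50 ± 0.402, adjusted p = 0.521). At 28 counts in KO and 42 in WT, the count ratio of 0.705 has a 95% interval of 0.421 to 1.16 for counting error only.

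Set side by side, line 1, with the lowest Igf2r, averaged 2.35 CPM of Airn, against 2.33 CPM in OdG WT. Line 2, with the lower Airn of the OdG lines, averaged 182 CPM of Igf2r, against 196 CPM in OdG WT. Among 10 tested neighbours on chromosome 17, 4 rose and 1 fell in line 2, where 59.9% of all genes were called, and 5 rose and 2 fell in line 1, where 52.8% were. In EG1 KO, where 7.66% of all genes were called, 0 of 9 were called by edgeR or DESeq2 and 1 had an unadjusted p under 0.05 in edgeR. Sod2, the mitochondrial superoxide dismutase gene, rose by 0.49 ± 0.0377 in line 2 and by 0.50 ± 0.0377 in line 1 on the log2 scale. Park2, which codes for the ubiquitin ligase parkin, rose by 1.07 ± 0.22 in line 2 and by 0.77 ± 0.229 in line 1. Agpat4, an enzyme of phospholipid synthesis, fell in line 2 (-1.13 ± 0.111, adjusted p = 1.23e-07) and gave -0.06 ± 0.0989 in line 1 (adjusted p = 0.661).

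Insr and Igf2r were the members called lower in all 3 KO lines, and of the pair Insr kept all 3 calls under every alternative run. The insulin receptor also binds IGF2, with high affinity in the isoform that fetal cells favour. Its libraries held 45.6 and 45.0 CPM in line 1 and 44.1 and 48.7 CPM in line 2, against 68.6 and 67.8 CPM in OdG WT. EG1 KO held 18.7, 20.2 and 15.7 CPM, against 39.0, 40.4 and 38.9 CPM in EG1 WT. No KO library overlapped the WT libraries of its own table. Insr fell by 0.58 ± 0.0591 in line 1, by 0.54 ± 0.0588 in line 2 and by 1.11 ± 0.0733 in EG1 KO on the log2 scale (adjusted p = 2.51e-07, 3.95e-07 and 7.07e-13). The EG1 KO level was 0.462 of WT, the rank 57 change by size among 14016 genes tested.

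The KO lines of OdG did not differ detectably in Insr (line 2 minus line 1 0.04 ± 0.0619, adjusted p = 0.645). The KO difference was smaller in OdG than in EG1, by 0.54 ± 0.0934 on the log2 scale (adjusted p = 2.54e-05), and this held with line 2 alone (0.56, adjusted p = 3.69e-05) and with line 1 alone (0.52, adjusted p = 0.000141) in place of their mean.

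Igf1r, the main signalling receptor for IGF1 and IGF2, varied little. It held 38.4 and 36.9 CPM in line 1 and 45.4 and 41.6 CPM in line 2, against 43.2 and 47.1 CPM in OdG WT, so that line 1 was below the other OdG groups and line 2 overlapped WT. It fell by 0.26 ± 0.0705 in line 1 (adjusted p = 0.00565), a call lost without line 1 replicate 2 (-0.22, adjusted p = 0.0548), and gave -0.04 ± 0.0692 in line 2 (adjusted p = 0.601). In EG1 it held 33.0, 35.7 and 32.1 CPM in KO and 31.3, 30.7 and 31.4 CPM in WT, with the KO libraries all above WT, and was not called (0.11 ± 0.0627, adjusted p = 0.328). Insr counts per Igf1r count were 1.19 and 1.22 in line 1 and 0.971 and 1.17 in line 2, against 1.59 and 1.44 in OdG WT. They were 0.567, 0.567 and 0.49 in EG1 KO, against 1.24, 1.32 and 1.24 in EG1 WT, and in both tables the KO and WT ranges were separate.

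Irs2 was the main receptor substrate transcript. It held 10.7 and 8.70 CPM in line 1 and 14.1 and 11.8 CPM in line 2, against 13.3 and 14.0 CPM in OdG WT. Line 1 lay below the other groups, and line 2 spanned the WT values. Irs2 fell in line 1 by 0.48 ± 0.127 on the log2 scale (adjusted p = 0.00412), a call lost without line 1 replicate 2 (-0.34, adjusted p = 0.0653), and gave -0.08 ± 0.121 in line 2 (adjusted p = 0.612). In EG1 the KO libraries held 15.4, 17.5 and 15.7 CPM, all above the 13.0, 13.1 and 14.1 CPM of WT. The difference of 0.27 ± 0.0883 missed the threshold (adjusted p = 0.0549) and passed it without EG1 KO replicate 1 (0.31, adjusted p = 0.0392).

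Irs1 was near the limit of detection in every group. It had 13 and 6 counts in line 1 and 9 and 6 in line 2, against 3 and 6 in OdG WT, and was not tested in the OdG fit for low counts. The count ratios to WT were 2.1 (0.906 to 5.28) in line 1 and 1.65 (0.677 to 4.28) in line 2, with 95% intervals for counting error only. In EG1 it had 11, 3 and 6 counts in KO and 4, 16 and 17 in WT, ranges that overlapped (log2 -0.79 ± 0.497, adjusted p = 0.382).

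**Figure D4:**
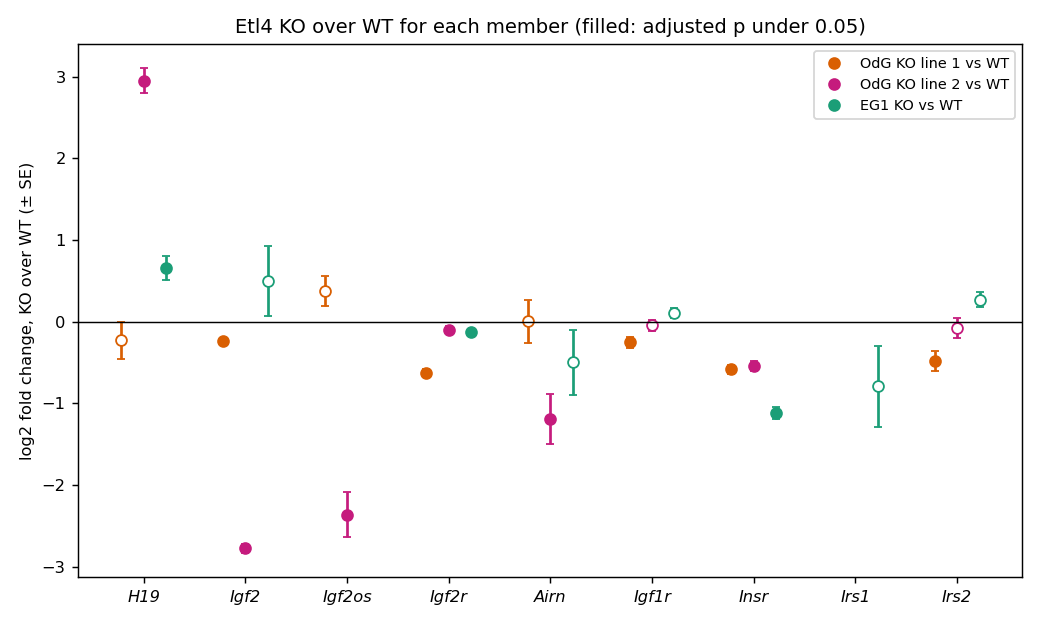
Log2 fold change of KO over WT (± SE) for each of the 9 genes in line 1, line 2 and EG1 KO, with filled points for an adjusted p under 0.05. Insr lies between -0.54 and -1.11 in all 3 lines, while H19, Igf2 and Igf2os are far from 0 in line 2; Irs1 has a point for EG1 alone and Igf2os for OdG alone, since genes with too few counts were not tested.

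Counts of calls among the members are set here beside the share of all tested genes called in the same comparison. In line 1 against WT, 5 of 8 tested members were called, 0 higher and 5 lower, where 52.8% of all genes were called (26.8% higher and 26.1% lower). In line 2 against WT 6 of 8 were called, 1 higher and 5 lower, where the share was 59.9% (30% higher and 29.8% lower). For the mean of both lines against WT 8 of 8 were called, 1 higher and 7 lower, against 59.9% of all genes (29.4% higher and 30.5% lower). Line 2 against line 1 gave 7 of 8, 4 higher and 3 lower, against 37.8% of all genes (18.6% higher and 19.2% lower). In EG1 KO against WT 3 of 8 were called, 1 higher and 2 lower, against 7.66% of all genes (3.6% higher and 4.06% lower). With shares this high in OdG, a call alone sets no member apart there. The mean of both lines also covers unlike lines, since H19 was 1.36 ± 0.175 on the log2 scale for the mean, 2.95 in line 2 and -0.23 in line 1.

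Whether the KO difference was the same in OdG and EG1 was tested as an interaction over the 12 libraries, with the OdG lines averaged. Of 9 tested members 7 were called, 2 higher and 5 lower in OdG than in EG1, where 39.8% of all genes were called (20.2% higher and 19.5% lower). H19 gave 0.70 ± 0.231 (adjusted p = 0.0165), but the sign depended on the line: with line 2 alone it was 2.29 (adjusted p = 8.61e-10) and with line 1 alone -0.89 (adjusted p = 0.0111). Igf2 gave -2.02 ± 0.359 (adjusted p = 3.81e-05) and -3.29 with line 2 alone (adjusted p = 1.87e-08), and was not called with line 1 alone (-0.74, adjusted p = 0.106). Irs2 gave -0.56 ± 0.138 (adjusted p = 0.00168), with -0.76 for line 1 alone (adjusted p = 0.000251) and -0.36 for line 2 alone (adjusted p = 0.0517).

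The WT cells of OdG and EG1 themselves differed widely at the locus. In EG1 WT against OdG WT, 6 of 9 tested members were called, 0 higher and 6 lower, where 70.3% of all genes were called (35% higher and 35.4% lower). Igf2 had 26 counts over 3 EG1 WT libraries and 3961 over 2 OdG WT libraries, a ratio scaled for depth of 0.00409 (95% interval 0.00267 to 0.00601) and a log2 difference of -7.91 ± 0.117 (adjusted p = 3.6e-31). That was the rank 16 change by size among 14977 genes. Igf2os had 2 counts in EG1 WT and 140 in OdG WT, a ratio of 0.00891 (0.00107 to 0.0328). H19 was not called (0.34 ± 0.189, adjusted p = 0.113), but it was called higher in EG1 WT without OdG WT replicate 1 (0.75, adjusted p = 0.00701) or without EG1 WT replicate 2 (0.45, adjusted p = 0.0468).

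Among the other members, Airn differed between the WT groups by -1.60 ± 0.312, Insr by -0.79 ± 0.0648, Igf1r by -0.54 ± 0.0657 and Igf2r by -0.31 ± 0.0402 on the log2 scale, all lower in EG1 (adjusted p 3.78e-05 or less). Irs2 (-0.03 ± 0.105, adjusted p = 0.821) and Irs1 (1.33 ± 0.631, adjusted p = 0.0605) were not called, and Irs1 was called higher in EG1 WT without EG1 WT replicate 1 (1.73, adjusted p = 0.011). OdG and EG1 are in separate tables, so cell line and table cannot be told apart.

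Ranked by group mean from low to high, Igf2r ran in the order line 1, EG1 KO, EG1 WT, line 2 and OdG WT, and no neighbouring ranges in that order overlapped. Insr ran in the order EG1 KO, EG1 WT, line 1, line 2 and OdG WT, of which line 1 and line 2 overlapped. For Igf2 the order was EG1 WT, EG1 KO, line 2, line 1 and OdG WT, with an overlap between the EG1 groups alone. H19 ran in the order line 1, OdG WT, EG1 WT, EG1 KO and line 2, and the first 3 of these overlapped with their neighbours. Compared per kb of exon, Igf2r was the most abundant receptor transcript in every group. In line 1 it averaged 13.64 CPM per kb, with Insr at 3.295 and Igf1r at 2.243 CPM per kb. In EG1 KO it averaged 15.65 CPM per kb, with Igf1r at 2.001 and Insr at 1.326 CPM per kb, and in EG1 WT 17.05 CPM per kb, with Insr at 2.868 and Igf1r at 1.854 CPM per kb.

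Beyond the members, the IGF binding proteins, which hold IGFs outside the cell and set their access to the receptors, included genes that fell in every KO line. Of 9 tested in each fit, 4 fell and 2 rose in line 1, 4 fell and 1 rose in line 2, and 2 fell and 1 rose in EG1 KO. The shares of all genes called were 52.8% in line 1, 59.9% in line 2, near the binding protein count there, and 7.66% in EG1 KO. Igfbp4 averaged 9.89 ± 0.365 CPM in line 1 and 6.73 ± 0.113 CPM in line 2, against 25.4 ± 1.78 CPM in OdG WT (SD, n = 2 each). It averaged 7.54 ± 0.592 CPM in EG1 KO and 13.0 ± 0.962 CPM in EG1 WT (SD, n = 3 each). It fell by 1.36 ± 0.101 in line 1, by 1.91 ± 0.108 in line 2 and by 0.79 ± 0.107 in EG1 KO on the log2 scale. Igfals, which codes for the subunit that joins IGF and its binding protein in a larger complex, fell by 1.37 ± 0.154, 1.86 ± 0.165 and 0.95 ± 0.216 in the same order. Htra1, a protease that cleaves IGF binding proteins, rose by 0.97 ± 0.0746 in line 1, by 1.23 ± 0.073 in line 2 and by 0.11 ± 0.0361 in EG1 KO. Igfbp2 fell by 1.38 ± 0.0655 in line 1 and by 0.86 ± 0.0637 in line 2 and gave 0.05 ± 0.0334 in EG1 KO (adjusted p = 0.411).

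The other ligand genes of the family were scarcely detected: of Igf1, Ins1, Ins2, Insl3 and Insl6, 0 had enough counts in OdG, and Insl3 alone was tested in EG1 and not called (-0.21 ± 0.361, adjusted p = 0.793). The IGF2 mRNA-binding proteins, which bind Igf2 and other transcripts in the cytoplasm, split in OdG. Igf2bp1 rose by 0.49 ± 0.0286 in line 1 and by 0.37 ± 0.0286 in line 2, and Igf2bp3 rose by 0.38 ± 0.038 and 0.28 ± 0.0382. Igf2bp2 fell by 0.28 ± 0.0414 in line 1 and gave -0.04 ± 0.041 in line 2. In EG1 KO, where 7.66% of all genes were called, 0 of the 3 were called by edgeR or DESeq2, with 2 at an unadjusted p under 0.05 in edgeR.

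Of the PI3K-AKT genes below the receptors, 17 of 38 tested rose and 10 fell in line 1, and 22 rose and 8 fell in line 2, with medians of 0.09 and 0.24 on the log2 scale. Of all genes 26.8% were called higher and 26.1% lower in line 1, and 30% higher and 29.8% lower in line 2, so that the line 1 count of lower genes is near its share. In EG1 KO 2 of 39 rose and 2 fell, with a median of -0.009, where 3.6% of all genes were called higher and 4.06% lower. Pik3r3, a regulatory subunit gene of PI3K, rose by 1.51 ± 0.108 in line 1 and 1.54 ± 0.107 in line 2. Gab1, a docking protein gene, rose by 0.15 ± 0.0625 in line 1 and 2.51 ± 0.0514 in line 2. In EG1 KO the called genes were Eif4ebp1, a brake on translation (0.19 ± 0.0417), Ptpn11, a phosphatase gene of growth factor signalling (0.15 ± 0.0419), and Inppl1 and Inpp5d, lipid phosphatase genes that act against PI3K (-0.14 ± 0.0367 and -0.11 ± 0.0351). Inpp5d lies outside the rule for named genes and is named to complete the count.

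Igf2r also sorts lysosomal enzymes by their mannose 6-phosphate tags. Of 8 tested genes of that sorting route, 2 rose and 1 fell in line 1, 1 rose and 2 fell in line 2, and in EG1 KO 0 were called by edgeR or DESeq2, with 1 at an unadjusted p under 0.05 in edgeR. The share of all genes called was 52.8% in line 1 and 59.9% in line 2, larger than for this list in each, and 7.66% in EG1 KO. M6pr, the second receptor for the tag, fell by 0.28 ± 0.0342 in line 2 and gave -0.07 ± 0.0339 in line 1 on the log2 scale. Gnptg gave -0.54 ± 0.0907 in line 2 (adjusted p = 6.22e-05) and -0.30 ± 0.0761 for the mean of both lines. Nagpa gave 0.17 ± 0.0913 in line 2 (adjusted p = 0.109) and 0.30 ± 0.0787 for the mean of both lines.

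Of 20 tested factors that keep or read imprints, 12 rose and 1 fell in line 1, 12 rose and 2 fell in line 2, and 4 rose and 0 fell in EG1 KO. The share of all genes called higher was 26.8% in line 1, 30% in line 2 and 3.6% in EG1 KO, and the share called lower 26.1%, 29.8% and 4.06%. Dnmt3b, a de novo DNA methyltransferase gene, rose by 0.90 ± 0.0423 in line 1, by 1.22 ± 0.0416 in line 2 and by 0.29 ± 0.0424 in EG1 KO on the log2 scale. Trim28, whose product is recruited to methylated imprints, rose by 0.63 ± 0.0255, 0.74 ± 0.0255 and 0.12 ± 0.0276 in the same order. Zfp57, which codes for a zinc finger protein that binds methylated imprints, rose by 0.50 ± 0.0345 in line 1 and 0.76 ± 0.0343 in line 2 and gave 0.06 ± 0.0311 in EG1 KO (adjusted p = 0.259). Dnmt3l, the cofactor of the de novo enzymes, rose by 0.58 ± 0.0676 in line 2 and by 0.68 ± 0.0589 in EG1 KO and fell by 0.30 ± 0.0732 in line 1. What these levels have to do with H19 and Igf2 was not tested.

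The imprinted gene network is a set of co-expressed growth genes to which H19 and Igf2 belong in mouse. Of 12 other members tested, 3 rose and 5 fell in line 1, 5 rose and 5 fell in line 2, and 1 rose and 1 fell in EG1 KO. Of all genes, 26.8% were called higher and 26.1% lower in line 1, 30% and 29.8% in line 2, and 3.6% and 4.06% in EG1 KO, and the line 1 count of higher genes is near its share. Meg3, a maternally transcribed RNA of another imprinted region, was high in line 2 as H19 was, at 67.6 to 70.8 CPM in line 2 and 0.630 to 0.754 CPM in line 1, against 0.865 to 0.944 CPM in OdG WT. It was 98.5 to 105 CPM in EG1 KO and 90.6 to 99.0 CPM in EG1 WT, where H19 was under 7.3 CPM. Plagl1, a zinc finger transcription factor gene, rose by 0.28 ± 0.0357 in EG1 KO and by 0.35 ± 0.031 in line 1 and fell by 0.09 ± 0.0312 in line 2 on the log2 scale. Sgce gave -1.84 ± 0.0978 in line 2 and -1.22 ± 0.0767 for the mean of both OdG lines. Gatm gave -0.69 ± 0.189 and -1.44 ± 0.178 in the same order. Neither was called in EG1 KO (adjusted p = 0.787 for Sgce and 0.31 for Gatm).

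The genes with group profiles closest to those of the members were found over the 5 group means of the 12 libraries, as the root mean square (RMS) difference of centred log2 CPM. For H19 these were Magea5 (0.265), Nlrp4e (0.282) and Magea6 (0.316). Magea5 averaged 9.56 CPM in line 2 and 0.926 CPM in line 1, against 0.697 CPM in OdG WT, and 1.64 CPM in EG1 KO and 1.32 CPM in EG1 WT. Magea5 and Magea6 belong to a family of near-identical copies, and how the authors' counting divided their reads is not given. Igf2 had no close match, since the nearest genes, Hoxa9 (0.693), St8sia2 (0.715) and Col4a6 (0.946), differed more. Hoxa9 averaged 111.7 CPM in line 1 and 51.4 CPM in line 2, against 119.6 CPM in OdG WT, and 1.58 CPM in EG1 KO and 1.77 CPM in EG1 WT, so that its line 2 level was a larger share of WT than that of Igf2. For Insr the closest were Wnt9a (0.116), Calml4 (0.137) and Sp7 (0.138), for Igf2r Slc4a7 (0.027), for Irs2 Mthfs (0.017), for Igf1r Rnf145 (0.025), for Airn Fkbp14 (0.081), for Igf2os Vnn1 (0.25) and for Irs1 Fgf17 (0.112). The distance grows with the range of the profile, and Igf2 spanned 7.64 log2 units over the groups where Igf1r spanned 0.53.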

How the data were processed

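RNA-seq counts were analysed for 12 libraries grouped by their titles: 2 each of OdG Etl4 KO line 1, OdG Etl4 KO line 2 and OdG WT, and 3 each of EG1 Etl4 KO and EG1 WT. The deposited values are raw whole-number counts for each gene symbol, in 1 table per cell line. Per the labels' protocols, Trizol and the NEBNext Ultra RNA kit were used. The build mm10 and the tools HISAT2 2.1.0, featureCounts 1.6.4, CASAVA and DESeq2 are taken from the submitters' processing notes. For annotation, filters and strand setting nothing is given in the sources used here. Totals of 16110028 to 19706599 counts leave members under 1 CPM with few counts, and intervals cover counting error only.

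Counts were tested with edgeR 4.0.16 in R 4.3.3: filterByExpr, TMM scaling and a two-sided quasi-likelihood test with 1 mean per group, with Benjamini-Hochberg adjustment over all tested genes and a threshold of 0.05. Every adjusted p is from this test unless DESeq2 is named. Each table was fitted alone (14413 genes in OdG, 14016 in EG1), and the interaction and the WT comparison over the 12 libraries (14977 genes). OdG KO weighs its lines equally. The steps were tested on simulated data. CPM are scaled over the 12 libraries, and per-kb values use merged GENCODE M21 exons. Within each group the replicates varied beyond counting noise (1.84 to 3.86 for chi-square over its degrees of freedom).

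The members and lists were chosen with earlier results of these data known. All 9 members are named. List genes are named from the largest changes among calls in OdG KO or EG1 KO, up to 3 per list and comparison. Some of these are left out, and Kcnq1ot1 and Inpp5d are named outside that rule. Similar genes are named by the 3 smallest RMS differences, of which the nearest is given for most members. Alternatives were DESeq2 1.42.0 (its size factors also within edgeR), no filter, the replicate number as a block, each library left out, the 4 OdG KO libraries as 1 group and a fit over 12 libraries. Each OdG line alone in the interaction was added after seeing the data.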

Additional observations from a re-analysis of the deposited data

Results flagged for a closer look

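For 7 of the 9 members the KO difference was not the same in OdG, as the mean of its lines, and in EG1, by the interaction test of edgeR. Of all genes, 39.8% were called in that test. The OdG minus EG1 difference in log2 fold change was -2.89 for Igf2os, -2.02 for Igf2, -0.56 for Irs2, -0.27 for Igf1r, -0.24 for Igf2r, 0.54 for Insr and 0.70 for H19 (adjusted p = 0.0269 for Igf2os, 3.81e-05 for Igf2, 0.00168 for Irs2, 0.0144 for Igf1r, 0.000474 for Igf2r, 2.54e-05 for Insr and 0.0165 for H19). The Igf2os value rests on 8 counts in EG1 KO and 2 in EG1 WT, and its call was lost without EG1 KO replicate 1 (-2.11, adjusted p = 0.215), EG1 WT replicate 1 (-2.40, adjusted p = 0.0764) or EG1 WT replicate 3 (-2.33, adjusted p = 0.0862), and with line 1 alone (-1.52, adjusted p = 0.27). H19 lost its call without OdG KO line 1 replicate 2 (0.61, adjusted p = 0.0531), OdG WT replicate 2 (0.38, adjusted p = 0.23) or EG1 WT replicate 3 (0.60, adjusted p = 0.0582). With line 1 alone H19 was -0.89 (adjusted p = 0.0111) and Igf2 was not called (-0.74, adjusted p = 0.106). With line 2 alone Igf2r gave 0.0165 and Irs2 -0.36, neither of them called (adjusted p = 0.843 and 0.0517). Igf1r, for which -0.15 in OdG KO and 0.11 in EG1 KO lie on either side of 0, was no longer called without OdG WT replicate 2 (-0.21, adjusted p = 0.107) or EG1 KO replicate 2 (-0.22, adjusted p = 0.0565), or with line 2 alone (-0.16, adjusted p = 0.157).

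In 7 of 8 tested members the Etl4 KO lines of OdG differed from each other. Of all genes, 37.8% were called in that comparison. Line 2 minus line 1 on the log2 scale was 3.18 for H19, 0.53 for Igf2r, 0.41 for Irs2, 0.21 for Igf1r, -1.20 for Airn, -2.54 for Igf2 and -2.74 for Igf2os, of which Igf1r (adjusted p = 0.0261) and Irs2 (adjusted p = 0.019) were the nearest to the threshold. Both calls were lost with DESeq2 and without line 1 replicate 2 or line 2 replicate 1, that of Igf1r also without line 1 replicate 1 (adjusted p 0.0689 to 0.228 for Igf1r and 0.0846 to 0.211 for Irs2). Groups of 2 or 3 libraries are too small for a test of single outlying libraries.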

How the results depend on the processing

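Called in the same direction in every alternative run were Insr in all 3 KO lines, in the mean of the OdG lines and in the interaction, H19, Igf2 and Igf2os in line 2 against WT and against line 1, Airn in line 2 against WT, Igf2r in line 2 against line 1, Igf2 and Igf2r in line 1, H19 in EG1 KO, and all 6 members called between the WT groups. Each other call was lost in at least 1 alternative. With DESeq2, 4 members were lower in OdG KO instead of 7 (Airn, Igf1r and Irs2 were lost), 2 were higher in line 2 than in line 1 instead of 4, and 1 was lower in EG1 KO instead of 2. With the replicate block 1 member, Insr, was lower in EG1 KO, as Igf2r lost its call (adjusted p = 0.0702). With no filter 2 were higher there, as Irs2 also passed the threshold (adjusted p = 0.0483). With the 4 OdG KO libraries as 1 group, which puts the difference between the lines into the spread, 0 members were higher and 1, Insr, lower (H19 2.11, adjusted p = 0.18, and Igf2 -1.01, adjusted p = 0.326). In the interaction, line 1 alone gave 1 member higher, with H19 at -0.89 and Airn at 0.50 against -0.10 for the mean of both lines, and line 2 alone gave 2 lower, with Igf2r at 0.0165.

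Leaving out each library in turn gave 4 to 6 members lower in OdG KO, 3 to 6 lower in line 1, 2 to 4 higher in line 2 than in line 1, 1 to 2 higher and 1 to 2 lower in EG1 KO, 1 to 3 higher in the interaction and 0 to 1 higher in EG1 WT than in OdG WT. Signs turned for H19 (-0.54 to 0.19) and Airn (-0.22 to 0.22) in line 1, Igf1r (-0.11 to 0.0192) and Irs2 (-0.21 to 0.055) in line 2, Insr between the lines (-0.0371 to 0.11), Irs2 between the WT groups (-0.0651 to 0.0091) and Airn in the interaction (-0.32 to 0.31), none of which is called with all libraries. The cause of these shifts was not tested. Genes called numbered 4609 in OdG KO as 1 group (8638 as line means), 3406 with DESeq2 between the lines (5454 with edgeR), and in EG1 KO 684 with DESeq2 and 638 at fewest with 1 library left out (1074 with edgeR on all). The replicate numbers did not pair the libraries (correlations of deviations from -0.04 to 0.07 between libraries of the same number), and beside Igf2r in EG1 KO the block also lost Igf2r in line 2 (adjusted p = 0.0509). Depth limits Irs1, Igf2os, Igf2 and Airn in EG1 and Irs1 in OdG.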
